A study of Mus musculus with 8 samples.

Results

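The class that the annotation calls Progenitors held 152 of the 48237 annotated nuclei (0.315%) from the paraflocculus/flocculus (PF/F), a pair of lateral cerebellar lobules. Its members were the nuclei with exactly that entry in the deposited annotation, matched by library and barcode to the raw counts of unique molecular identifiers (UMIs, single captured RNA molecules). Nuclei came from WT mice and from their littermates with 1 intact copy of Tbx1 (Tbx1+/-), a T-box transcription factor gene of the 22q11.2 syntenic region, at postnatal day 5.5 on a C57/BL6 background. Each genotype had 2 libraries, one from each of 2 batches, each library pooled the PF/F of 5 mice. The study used mice of both sexes. The library was therefore the replicate, and neither mice nor nuclei could be compared as such.

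The WT libraries contributed 31 nuclei in replicate 1 and 29 in replicate 2, and the Tbx1+/- libraries contributed 20 and 72. Their median depth was 7419 UMIs in WT replicate 1, 10267 in WT replicate 2, 6704 in Tbx1+/- replicate 1 and 9374 in Tbx1+/- replicate 2, against 2610 to 3503 UMIs over all annotated nuclei of these libraries. The class was thus among the deepest of the 16 annotated types, beside Purkinje (library medians of 5653 to 8533) and GABA.interneuron (5259 to 8069). Summed over its nuclei, the class held 236560, 272800, 131474 and 649549 UMIs in the same order, and levels are given below as CPM, UMIs of a gene scaled to a fixed total for each such sum. The libraries had 9153 to 13835 annotated nuclei each, their same-barcode overlaps took in 518 of the 48237 nuclei, and 1 of the 152 nuclei had a barcode that another library also used. Tbx1 itself had 0 UMIs in the class in all 4 libraries, which allows up to 12.7 CPM in WT replicate 1, 11.0 in WT replicate 2, 22.8 in Tbx1+/- replicate 1 and 4.62 in Tbx1+/- replicate 2 from counting error alone, so the class offered no check of the genotype labels.

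Neural progenitors of the cerebellum divide and carry radial glial genes such as Sox2, Hes5, Vim and Nes. Glutamate neurons arise from the rhombic lip and GABA neurons from the ventricular zone, and both switch on pan-neuronal genes of the cytoskeleton and synapse once they stop dividing. Vesicular glutamate transporters (Slc17a6, Slc17a7) mark neurons that release glutamate, whereas Gad1, Gad2 and Slc32a1 mark those that release GABA. Meis2 encodes a homeodomain factor of the TALE family that is used in the developing cerebellum as a marker of the neurons of the deep nuclei.

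The levels did not bear out the label. The 14 neural progenitor and radial glia genes summed to 495 CPM in WT replicate 1, 235 in WT replicate 2, 319 in Tbx1+/- replicate 1 and 282 in Tbx1+/- replicate 2, the lowest mean of the 16 types, below Purkinje (mean 422) and far below GABA.interneuron.progenitor (mean 2735). Most of what was there was Fabp7, a fatty acid binding protein of radial glia, with 150 to 359 CPM in the 4 libraries and also the lowest mean of the 16 types. Neurog1, Neurog2 and Olig3, which specify early neuronal precursors, had no UMI in any of the 152 nuclei. Sox2 had 1 UMI, in WT replicate 1, Nes had 2 and Hes5 had 3. Pax3 (15 UMIs) and Msi1 (29 UMIs) ranked 16 and 15 of the 16 types.

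Genes of the cell cycle were low as well. The 12 proliferation genes summed to 245 and 132 CPM in the WT libraries and 357 and 137 in the Tbx1+/- libraries, again the lowest mean of the 16 types, against a mean of 2558 in GNP, the annotated granule neuron progenitors. All 12 were among the 3 lowest types by mean, as were 8 of the 10 progenitor genes that averaged at least 10 CPM over the types. That share has a high background in this class, since 36.0% of all 11566 genes at that level were also among its 3 lowest. Mki67, a marker of dividing cells, was at 29.6 and 11.0 CPM in the WT libraries and 22.8 and 21.6 in the Tbx1+/- libraries, against a mean of 252 in GNP. Top2a, a topoisomerase of dividing cells, was at 8.45 and 7.33 CPM in WT and at 83.7 and 12.3 in Tbx1+/-. The mean of Mki67 rose from 21.2 to 51.2 CPM when the 8% of annotated nuclei with the most UMIs were left out, which leaves 2 nuclei of the class in Tbx1+/- replicate 1. Mki67 and Top2a were found together in 3 of the 152 nuclei, and at least 1 of them in 37.

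Both lists were higher in replicate 1 than in replicate 2 of the same genotype, and the share of UMIs kept after the authors' correction for free RNA was lower there (median 0.755 and 0.762 in the class in replicate 1, 0.808 and 0.810 in replicate 2). Purkinje and GABA.interneuron, the other deep types, were as low in proliferation genes (means of 241 and 237 CPM against 218), so the class was not set apart from them on this list. Whether depth or free RNA accounts for part of these low levels was not tested.

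Pan-neuronal genes stood at the other end. The 14 genes of that list summed to 14301 and 14010 CPM in WT and 13174 and 13933 in Tbx1+/-, the highest mean of the 16 types, with GABA.interneuron next (mean 10613). Snhg11, a host gene of small nucleolar RNAs, carried most of this, at 8269 and 8523 CPM in WT and 7439 and 8293 in Tbx1+/-, and had a UMI in all 152 nuclei, as in all 406 of GABA.interneuron and all 1299 of Purkinje. Without Snhg11 the list fell to a mean of 5724 CPM and rank 5. Nefl and Nefm, the light and medium neurofilaments, and Gap43, a growth cone protein, were each highest of the 16 types in all 4 libraries, with means of 105, 87.6 and 446 CPM, although Nefl and Nefm overlap on opposite strands at 1 locus. Elavl3, an RNA-binding protein of neurons, and Tubb3, neuronal tubulin, had the highest mean (375 and 204 CPM) but not in every library. The late marker Rbfox3 was low, with 118 and 69.6 CPM in WT and 91.3 and 93.9 in Tbx1+/-, rank 15 of 16. Because of these levels the class is called here by a gene that leads it, the Meis2-rich class, and no other cell type name is given to it.

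**Figure D1:**
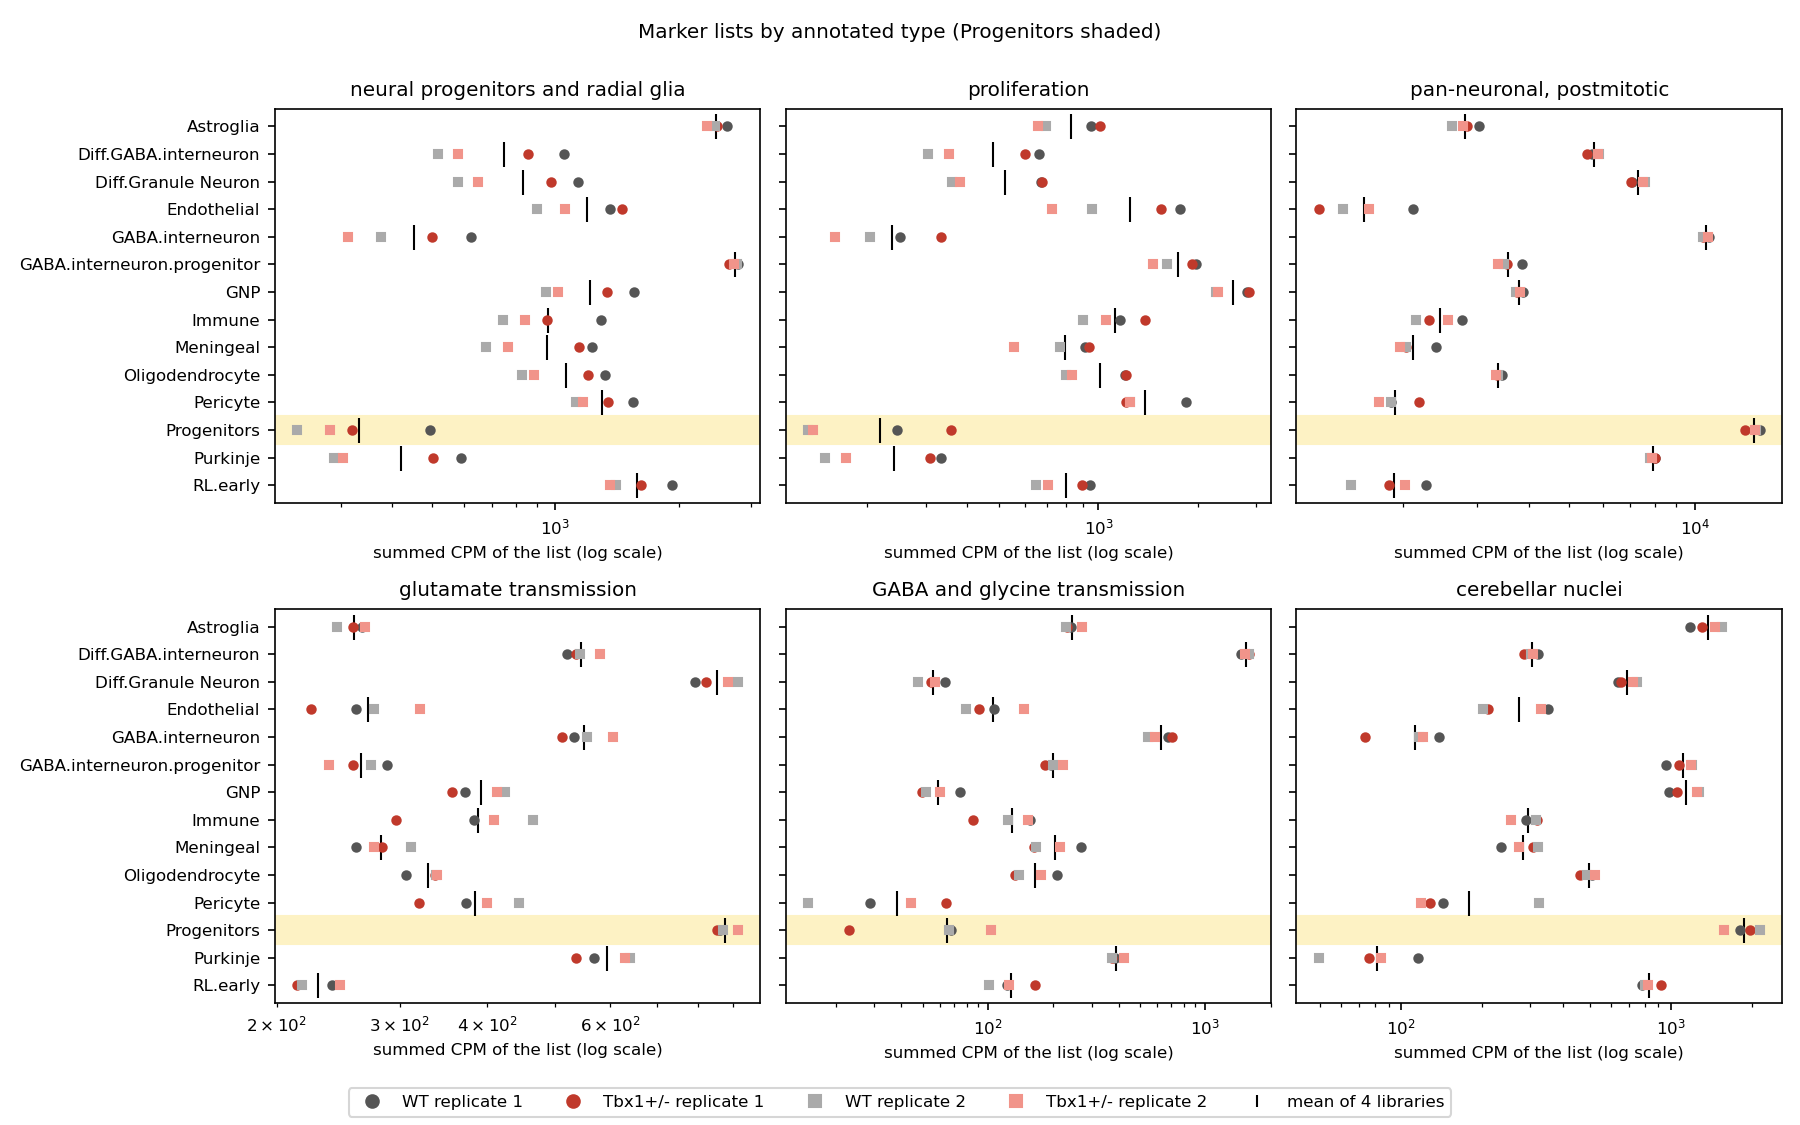
Summed level of 6 marker lists in 14 of the 16 annotated types, in CPM on a log scale, with 1 point per library and a bar at the mean of the 4 libraries. Of all 16 types, the shaded class has the lowest mean of the progenitor list (333 CPM) and of the proliferation list (218 CPM) and the highest mean of the pan-neuronal list (13854 CPM) and of the cerebellar nuclei list (1870 CPM).

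The genes that led the class are given as a description, with no test, because the annotation came from clusters of the same counts. Of the 1940 genes with a mean of at least 100 CPM in the class, 136 (7.01%) were above every one of the other 15 types in each of the 4 libraries. For most of them the lead was small. The median ratio to the next type was 1.37, with 22 genes at 2 or more and 6 at 5 or more. The same rule named between 68 genes in Diff.GABA.interneuron and 386 in Immune. The next type was GABA.interneuron for 59 of the 136 genes and Purkinje for 33.

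Meis2 (chromosome 2, 115863064 to 116065839, minus strand, GRCm38) was at 1395 and 1822 CPM in the WT libraries and at 1605 and 1279 in the Tbx1+/- libraries. All 4 values lay above those of the next type, Oligodendrocyte, which had a mean of 147, and the mean of the class was 10.4 times as high. The 2 genotypes overlapped. Meis2 is among the markers that the study shows for PF/F types, so its lead is not independent of the annotation. Gm49678, a long non-coding RNA on chromosome 16 (75388544 to 75447293, minus strand) that overlaps Gm49677 on the same strand, had the largest ratio among genes over 100 CPM, with 856 ± 85.1 CPM (SD, n = 4) against 57.4 in Astroglia. An effect of that overlap on its counts was not tested. Cpne4, a copine that binds membranes in response to calcium, was at 165 ± 24.4 CPM, 14.5 times the mean of Purkinje. Gm12128, a long non-coding RNA on chromosome 11 (37658989 to 37673166, plus strand), was at 214 ± 68.6 CPM, 11.1 times the mean of the next type.

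Tafa1 encodes a secreted chemokine-like protein of neurons. It was at 1222 and 1727 CPM in WT and at 1689 and 1653 in Tbx1+/-, 7.54 times the next type, with WT replicate 1 the lowest of the 4. Gabra2, the alpha 2 subunit of GABA-A receptors, was at 583 and 861 CPM in WT and at 905 and 824 in Tbx1+/-, 4.74 times the next type, and WT replicate 1 was again the lowest. Both netrin-G genes, whose products are membrane-anchored relatives of netrins, led the class, with Ntng1 at 2758 ± 261 CPM and Ntng2 at 117 ± 18.9 CPM. Sgcz, a sarcoglycan, was at 3006 ± 312 CPM, 2.98 times GABA.interneuron.

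Other leading genes encode regulators of transcription and signalling. Lmo3, a LIM-only cofactor, was at 323 ± 42.8 CPM and Tshz1, a teashirt zinc finger factor, at 250 ± 38.4 CPM. Peg3, an imprinted zinc finger gene, was at 254 ± 27.7 CPM and Runx1t1, a corepressor, at 457 ± 111 CPM. Rasgrf2, an exchange factor for Ras, was at 103 ± 12.3 CPM, Sorcs1, a sorting receptor, at 860 ± 115 CPM and Cul4a, a scaffold of ubiquitin ligases, at 270 ± 44.5 CPM. Ratios to the next type were 3.90 for Lmo3, 3.93 for Cul4a, 2.68 for Tshz1, 2.45 for Sorcs1, 2.45 for Rasgrf2, 2.15 for Peg3 and 1.93 for Runx1t1. Lmo3 and Sorcs1, like Tafa1, Ntng1 and Sgcz above, overlap non-coding genes on the opposite strand. An effect of these overlaps on the counts was not tested.

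Without the 8% of annotated nuclei with the most UMIs, 8 and 6 nuclei of the class were left in WT and 2 and 24 in Tbx1+/-, and levels moved both ways. The mean was then lower for Gm49678 (452 CPM), Gabra2 (512 CPM) and Sgcz (1492 CPM) and higher for Nefm (138 CPM) and Peg3 (313 CPM), and the genes highest in all libraries fell from 136 to 73.

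At the threshold of the rule, Gm9866 (100.4 CPM), Dnm1 (102 CPM) and Gm49179 (103 CPM) fell just inside, and 4933411O13Rik (99.4 CPM), Gm27008 (98.5 CPM) and Adap1 (96.6 CPM) just outside.

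**Figure D2:**
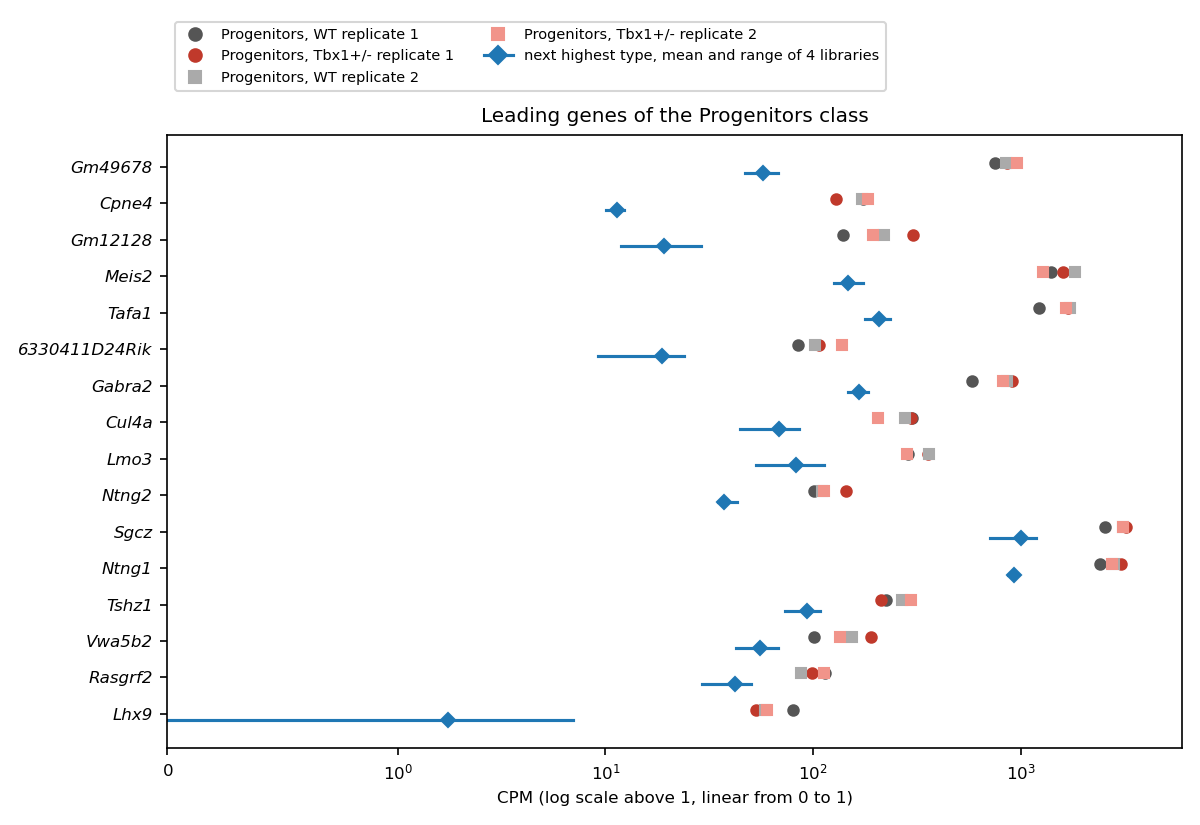
Levels of the 15 genes with the largest ratio to the next type, and of Lhx9, in CPM, with 1 point for each library of the class and a diamond with a line for the mean and range of the next highest type over the 4 libraries. In each row the 4 points of the class lie to the right of the line, with ratios of the means from 14.9 for Gm49678 to 2.45 for Rasgrf2. No ratio is given for Lhx9, whose next type was at 0 in 3 libraries.

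Transcription factors of the deep nuclei were present in part. Lhx9, a LIM homeodomain factor (chromosome 1, 138825186 to 138848577, minus strand), was at 80.3 and 58.7 CPM in WT and at 53.2 and 60.0 in Tbx1+/-, below the 100 CPM of the rule. In the next type by mean, Endothelial, it was at 6.9955 CPM in 1 library and 0 in the other 3, too few UMIs for a ratio. Irx3, an Iroquois factor, was also highest of the 16 types in all 4 libraries at only 12.3 to 22.0 CPM, and its relative Irx5 was second to RL.early at 27.7 to 53.2 CPM. Lhx2 was at 15.2 and 12.3 CPM in the Tbx1+/- libraries (2 and 8 UMIs) and had no UMI in either WT library, which the depth of the WT libraries allows for up to 12.7 and 11.0 CPM. Tbr1, Sox14, Olig3 and Nr4a2 of the same list had no UMI in the class, Pou3f1 had 1 and Lmx1b had 2. The list as a whole summed to 1870 CPM on average, the highest of the 16 types, but without Meis2 its mean was 345 CPM and its rank 9.

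Among the 15 TALE homeobox genes, Meis2 and Irx3 were the ones with the highest mean of the 16 types. Pbx3, a cofactor of Meis proteins, was at 600 ± 66.9 CPM, rank 5, and Meis1 at 256 ± 39.2 CPM was at rank 10, below a mean of 1324 in Astroglia. Evx2, a homeodomain factor of hindbrain and spinal interneurons, had 6 UMIs in 5 nuclei, with at least 1 in each library, and was close to 0 elsewhere (at most a mean of 0.121 CPM in the other types). The 24 hindbrain and brainstem regulators summed to the lowest mean of the 16 types (326 to 744 CPM). Of 18 forebrain and midbrain regulators, 9 had no UMI, among them Six3, Dlx1, Dlx2, Dlx5, Emx2 and Nkx2-1. The other 9 included Tshz1, a leading gene of the class, and the list as a whole was at rank 14 of 16 (mean 434 CPM). Hox genes, which mark the hindbrain behind the cerebellum, had no UMI in 3 libraries and 21.6 CPM in all in Tbx1+/- replicate 2.

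For transmitter genes, Slc17a6, the vesicular glutamate transporter VGLUT2, was at 262 and 172 CPM in the WT libraries and at 228 and 160 in the Tbx1+/- libraries. Its mean of 206 ± 47.9 CPM (SD, n = 4) was at rank 3, below a mean of 274 in Diff.Granule Neuron. Slc17a7 had 5 UMIs, all in Tbx1+/- replicate 2, and Slc17a8 had 2. The 6 GABA and glycine genes summed to 67.6 and 66.0 CPM in WT and to 22.8 and 103 in Tbx1+/-, against means of 628 in GABA.interneuron and 1541 in Diff.GABA.interneuron. Of the 12 genes of monoamine and acetylcholine transmission, 10 had no UMI in the class.

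The UMIs were spread over most nuclei. Meis2 had a UMI in 137 of 152 nuclei (90.1%, 95% Wilson interval 84.4 to 93.9%), with a median of 11 UMIs. In GABA.interneuron, the type nearest in depth (median 7028 UMIs against 8241 for the class), it had a UMI in 11 of 406 nuclei (2.71%). In Oligodendrocyte, the next type by level, it had a UMI in 485 of 1624 nuclei (29.9%, or 20.9% after the thinning described next). Each nucleus was also thinned to 2000 UMIs, leaving out 2 of the 152 nuclei, both shallower than that, and none of the 406. The shares were then 83.3% in the class and 0.493% in GABA.interneuron. Gm49678 had a UMI in 134 nuclei, Gabra2 in 139 and Tafa1 in 127, against 17.0%, 12.3% and 10.6% of GABA.interneuron and 8.62%, 4.70% and 2.16% of Purkinje. In Oligodendrocyte the shares were 1.48%, 16.9% and 37.3% in the same order. That type is also the next by level for Tafa1, and after thinning the share of Tafa1 was 26.1% there against 71.3% in the class. Ntng1 had a UMI in 142 nuclei of the class (93.4%) but also in 69.0% of GABA.interneuron and 82.5% of Purkinje. In the class, 110 nuclei (72.4%) held Meis2, Tafa1 and Gm49678 together. These shares and intervals cover counting error only.

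Lhx9 was found in 60 nuclei (39.5%), 58 of which also held Meis2, with a median of 1 UMI where it was present. It was found in 0 of 406 GABA.interneuron nuclei, which allows a share of up to 0.739% of nuclei with a UMI and sets no limit on nuclei that express it. After thinning, 9.33% of the nuclei of the class kept an Lhx9 UMI, so whether the remaining nuclei lack Lhx9 was not detectable at this depth. Slc17a6 had a UMI in 110 nuclei (72.4%), against 9.61% of GABA.interneuron and, after thinning, 32.7% against 2.46%. In GNP, a shallower type (median depth 2555 UMIs), the share was 38.9% before thinning and 32.3% after it, with 2244 of 9404 nuclei left out, so at equal depth the share was close to that of the class. Of the 110, 103 had no UMI of Gad1, Gad2, Slc32a1 or Slc6a5.

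A few nuclei differed from the rest. Meis2 was absent from 15 nuclei, 4 in WT replicate 1 and 11 in Tbx1+/- replicate 2, and their median depth (7471 UMIs) was little below that of the 137 with Meis2 (8481 UMIs). At least 2 UMIs of Gad1, Gad2, Slc32a1 and Slc6a5 were found in 6 nuclei, of which 4 were in Tbx1+/- replicate 2 and had neither a Meis2 nor an Slc17a6 UMI. Of the 20 Gad2 UMIs of the class, 18 lay in 3 of those nuclei. Foxp2, a forkhead factor found in Purkinje cells among others, was at 12.7 and 14.7 CPM in WT, 7.61 in Tbx1+/- replicate 1 and 83.1 in Tbx1+/- replicate 2. In that last library 45 of the 54 UMIs came from 2 nuclei, both without Meis2. Hoxd4 had 4 UMIs in 3 nuclei of the same library and Hoxb3 had 4 UMIs in 2. Tbx1+/- replicate 2 thus held 11 of the 15 nuclei without Meis2, and 72 of the 152 nuclei of the class.

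The 33 glutamate and GABA receptor subunits summed to a mean of 14334 CPM, the highest of the 16 types, with Diff.Granule Neuron next at 13514, but the libraries of the class (13028 to 15474 CPM) overlapped those of that type (12160 to 14920 CPM). Highest in all 4 libraries were Gabra2 (above), Grin2a and Gabra5. Of these, Grin2a, the GluN2A subunit of NMDA receptors, was at 355 and 286 CPM in WT and at 304 and 351 in Tbx1+/-, 2.06 times the next type. Gabra5 was lower, at 45.0 ± 7.88 CPM, 1.55 times GABA.interneuron. Grm5 and Gabrg1, at 1264 ± 139 and 159 ± 53.7 CPM, had the highest mean of the 16 types without leading in every library. Over the 28 subunits with a mean of at least 10 CPM over the types, 2 led in all 4 libraries, against 1.83% of all 11566 genes at that level. Gabra5 was below that level. Another gene overlaps it on the opposite strand, and an effect of this on its counts was not tested.

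The 42 guidance and adhesion receptors as a list were at rank 8 of 16, with a mean of 15820 CPM against 27756 in GABA.interneuron.progenitor, and a few members led the types. Robo2, a receptor for Slit proteins, was at 1078 and 1518 CPM in WT and at 1293 and 1393 in Tbx1+/-, higher than the next type in all libraries but by a mean ratio of only 1.10. Epha4, an ephrin receptor, was at 321 and 271 CPM in WT and at 335 and 322 in Tbx1+/-, 1.66 times Purkinje. Plxna4, a semaphorin co-receptor, was at 728 ± 59.6 CPM, 1.22 times GABA.interneuron, and antisense transcripts overlap it. These were 3 of the 40 measured members at the 10 CPM level, beside the 1.83% over all genes. Of 28 voltage-gated channel genes, Cacna1d, an L-type calcium channel, led in all libraries at 576 ± 66.7 CPM (1.25 times the next type), and the list as a whole was at rank 7, with a mean of 12055 CPM against 24929 in Diff.Granule Neuron.

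Of the 29 neuropeptides and their receptors, 24 had a UMI, and the list was at rank 5 of 16 with a mean of 332 CPM. Nts, neurotensin, was at 59.2 and 0 CPM in the WT libraries and at 15.2 and 23.1 in the Tbx1+/- libraries, from 31 UMIs in 16 nuclei, and the WT libraries held both the highest and the lowest value. Nxph1, neurexophilin, was found in 43 of 152 nuclei. The 8 calcium-binding proteins summed to a mean of 370 CPM, rank 7 of 16, most of it from Ncald, neurocalcin delta, at 199 to 304 CPM and rank 3. Calb1 and Calb2, calbindin and calretinin, were both at rank 16, at 13.9 to 42.3 and 0 to 8.45 CPM.

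The profile was nearest to that of GABA.interneuron. Across 11566 genes the Spearman correlation of mean levels was 0.919 with GABA.interneuron, 0.866 with Purkinje, 0.852 with Diff.GABA.interneuron and 0.622 with GNP. Genes are not independent replicates and the types share their libraries, and the 2 best-correlated types were also the other deep ones, so these values are given as a description. On the deposited UMAP, a 2-dimensional map of the nuclei on which long distances carry little meaning, the median position of the class lay nearest to that of GABA.interneuron (2.28 map units), with Diff.GABA.interneuron next (7.70).

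Markers of glial, endothelial, meningeal, immune, ependymal and Purkinje cells were low in the class. Astroglial genes (11) summed to 264 to 353 CPM against a mean of 8527 in Astroglia, oligodendrocyte genes (11) to 63.4 to 109 against 4496, endothelial genes (6) to 46.5 to 91.3 against 5607, meningeal genes (8) to 13.9 to 30.4 against 4162 and immune genes (8) to 114 to 203 against 5273. The 11 Purkinje genes in the files summed to 841 to 1103 CPM, mostly Rora, against a mean of 19659 in Purkinje, and Skor2 had no UMI. Ependymal and choroid plexus genes were at 83.7 to 152 CPM, rank 16. Of these lists, the endothelial genes ranked highest in the class, at 5 of 16, and the part of free RNA in them was not tested. Muscle genes (6) were at rank 3, with 38.0 to 134 CPM against a mean of 95.8 in GABA.interneuron. Genes of the inner ear and other epithelium (7) were at rank 5, with 0 to 30.4 CPM.

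Whether Tbx1+/- PF/F held more or fewer of these nuclei was compared over libraries. The class made up 0.253% (31 of 12255) and 0.317% (29 of 9153) of annotated nuclei in WT, and 0.145% (20 of 13835) and 0.554% (72 of 12994) in Tbx1+/-. The 2 Tbx1+/- libraries were the lowest and the highest of the 4, with WT between them. The log2 difference, Tbx1+/- minus WT, was 0.29 ± 0.72 (SE), with a false discovery rate of 0.976 in edgeR's quasi-likelihood test over the 16 types. Of the 16 types, 0 (0%) passed a rate of 0.1, with 0 at an unadjusted p under 0.05 and 0 with DESeq2. The estimate turned to -0.96 without Tbx1+/- replicate 2 and was 0.97 without Tbx1+/- replicate 1, so its direction rested on Tbx1+/- replicate 2.

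The annotation ends at an upper number of UMIs that differed between libraries, and the study states that it removed outliers in UMIs, genes and mitochondrial share. The deepest annotated nucleus of any type had 11236 and 14501 UMIs in the WT libraries and 8859 and 15658 in the Tbx1+/- libraries, and 112 of the 152 nuclei of the class were among the 8% of annotated nuclei with the most UMIs. At least 5 Meis2 UMIs were found in 23 and 27 nuclei of the class in WT and in 16 and 53 in Tbx1+/-. The same was found in 51 and 44 barcodes without annotation in WT and in 34 and 48 in Tbx1+/-. Of these 177 barcodes, 150 had more UMIs than any annotated nucleus of their library. Such nuclei of the class and such unannotated barcodes together numbered 74 and 71 in WT and 50 and 101 in Tbx1+/-, or 0.483% and 0.671% against 0.292% and 0.675% of all barcodes. A further 33 and 47 annotated nuclei of other types in WT and 28 and 61 in Tbx1+/- also had at least 5 Meis2 UMIs and are not in these sums. How many of these are doublets, and which filter left them without annotation, was not tested.

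**Figure D3:**
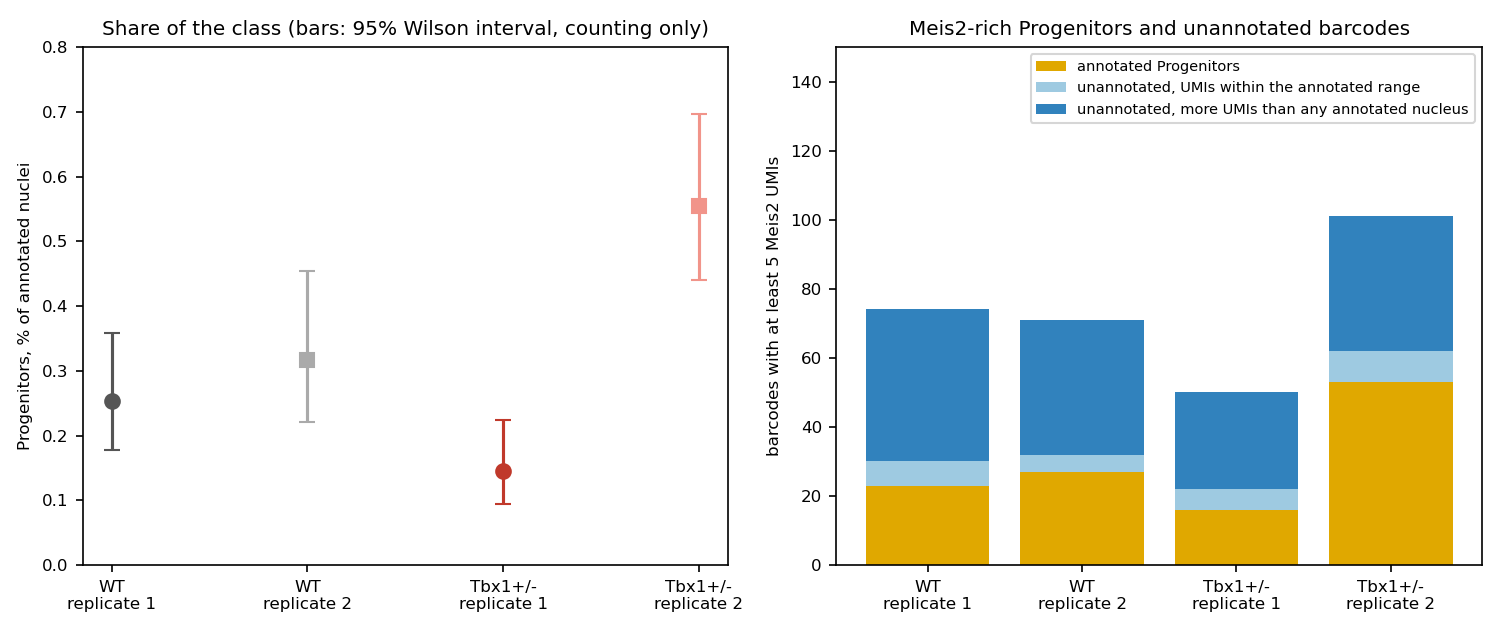
Left, the class as a percent of annotated nuclei in each library, with 95% Wilson intervals that cover counting error only. Right, barcodes with at least 5 Meis2 UMIs in each library other than the 169 annotated nuclei of other types, split into annotated Progenitors, unannotated barcodes within the UMI range of annotated nuclei and unannotated barcodes above it. The unannotated barcodes above the range number 44 and 39 in WT and 28 and 39 in Tbx1+/-.

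Genes were then compared between genotypes on the sums of the class. Of 5214 genes with enough UMIs, 0 (0%) passed an adjusted p under 0.05 with a change above 1.5-fold in edgeR's quasi-likelihood test, and 91 had an unadjusted p under 0.05. By DESeq2, which took in 19236 genes, 0 were called and 8 had a p under 0.05 before adjustment.

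The 136 leading genes were all tested and none was called, with a median log2 change of 0.06 (range -0.50 to 0.50) beside 0.00013 over all genes tested. The changes were -0.15 ± 0.23 (SE) for Meis2, -0.22 ± 0.36 for Lhx9, 0.21 ± 0.22 for Gm49678, 0.19 ± 0.23 for Tafa1, 0.27 ± 0.25 for Gabra2 and -0.20 ± 0.32 for Slc17a6, all with an adjusted p of 0.999. The values of the 2 genotypes overlapped for Meis2, Lhx9, Tafa1, Gabra2 and Slc17a6, whereas for Gm49678 both Tbx1+/- values (859 and 961 CPM) were above both WT values (752 and 850 CPM). How many of all tested genes separate in this way was not counted, so the separation of Gm49678 is given no weight.

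The 5 genes with the smallest unadjusted p are given as not called. Ndst4, which modifies heparan sulfate chains by N-deacetylation and N-sulfation, was at 59.2 and 73.3 CPM in WT and at 152 and 212 in Tbx1+/-, so the genotypes did not overlap. Its log2 change was 1.53 ± 0.33 (SE), with an adjusted p of 0.999 in edgeR's test. With the replicate number as a block in that test, the change was 1.49 and the adjusted p 0.234. The 192 UMIs of Ndst4 came from 70 nuclei, 39 of them among the 72 of Tbx1+/- replicate 2, with at most 18 UMIs in any of them. Tbx1+/- replicate 1 held 20 UMIs in 8 of its 20 nuclei, with 6 UMIs in 1 nucleus. The WT libraries held 14 UMIs in 12 of 31 nuclei and 20 UMIs in 11 of 29. Without the top nucleus of each library the levels were 46.5 and 58.7 CPM in WT and 106 and 185 in Tbx1+/-.

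Kctd8, an auxiliary subunit of GABA-B receptors, was at 42.3 and 22.0 CPM in WT and at 129 and 86.2 in Tbx1+/-, a log2 change of 1.66 ± 0.43. In Tbx1+/- replicate 1, 8 of its 17 UMIs lay in 1 nucleus. Without the top nucleus of each library the levels were 29.6 and 14.7 CPM in WT and 68.5 and 72.4 in Tbx1+/-. Tshz2, a teashirt zinc finger factor, was at 803 and 902 CPM in WT and at 502 and 513 in Tbx1+/-. Its log2 change was -0.73 ± 0.23, with an adjusted p of 0.999 in edgeR's test and 0.545 with the replicate block. It was the most abundant of the 5 and was found in 127 of the 152 nuclei. Lgr5, a receptor for R-spondins, was at 50.7 and 80.6 CPM in WT and at 7.61 and 23.1 in Tbx1+/-, a log2 change of -1.70 ± 0.52 from 50 UMIs in all. With 1 library left out the change ranged from -1.34 to -3.05. In each WT library 1 nucleus held much of the count, 6 of 12 UMIs in replicate 1 and 10 of 22 in replicate 2. Without the top nucleus of each library the levels were 25.4 and 44.0 CPM in WT and 0 and 18.5 in Tbx1+/-.

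Ttr, the transthyretin of choroid plexus, was at 38.0 and 25.7 CPM in WT and at 53.2 and 97.0 in Tbx1+/-, a log2 change of 1.44 ± 0.43. That change was 0.73 without Tbx1+/- replicate 2 and 1.21 to 1.72 without any other library. The UMIs of Ttr were thinly spread over 55 nuclei with at most 4 in each, and whether they were free RNA was not tested. The 5 genes were chosen by p, which favours genes whose genotypes do not overlap. The share of all tested genes that do not overlap was not counted, so the separation in these genes is given no weight.

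**Figure D4:**
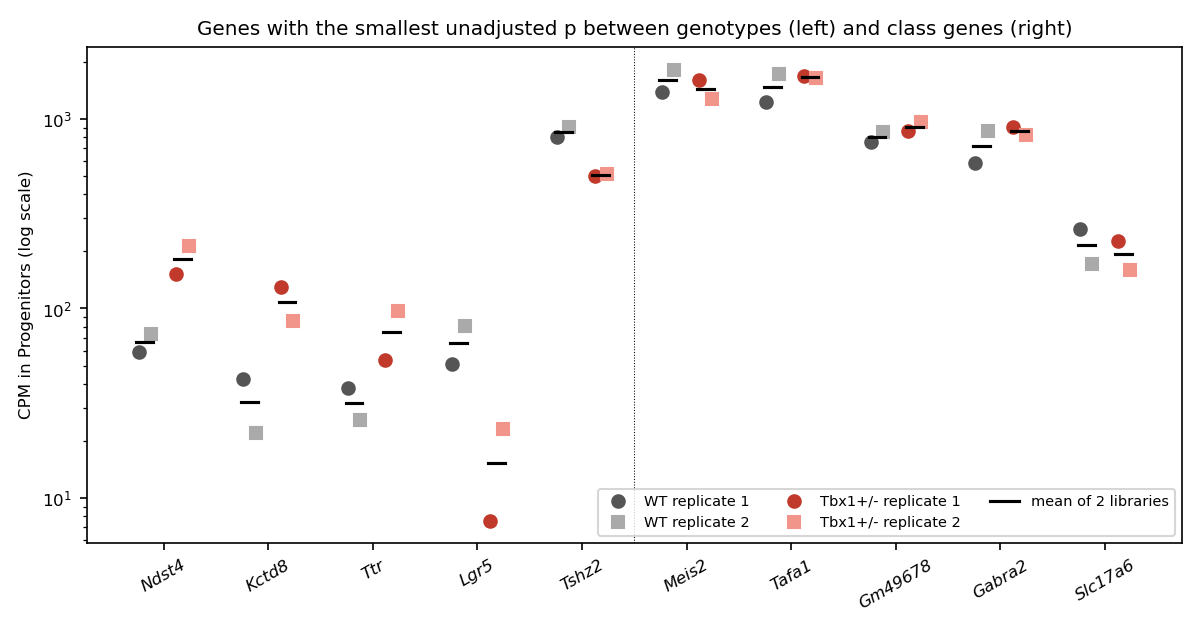
Levels in the Meis2-rich class, in CPM on a log scale, of the 5 genes with the smallest unadjusted p between genotypes and of 5 genes that mark the class, with 1 point per library and a bar at the mean of 2 libraries. The Tbx1+/- points of Ndst4 (152 and 212 CPM) lie above the WT points (59.2 and 73.3 CPM), and none of the 10 genes was called.

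Of the lists, 0 members were called in either direction. Among the 32 tested guidance and adhesion receptors, 3 had an unadjusted p under 0.05, beside 91 of the 5214 genes, and each had an adjusted p of 0.999 in edgeR's test. The log2 changes were 1.89 ± 0.66 for Cdh6, 0.88 ± 0.35 for Cdh9 and -1.07 ± 0.37 for Cdh4, with a median of 0.04 over the list. Cdh6 rested on 6 UMIs in WT and 34 in Tbx1+/-. The 28 receptor subunits had a median of 0.05 and the 26 voltage-gated channels a median of -0.06, with 0 at an unadjusted p under 0.05 in each. All 14 pan-neuronal genes were tested, with a median of -0.03 (range -0.39 to 0.28). Only 1 of the 14 progenitor genes and 1 of the 12 proliferation genes had enough UMIs for the test.

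The genotype change in the class was also set against that in all other annotated nuclei, as an interaction with the library as a block. Of 19459 genes, 2 (0.0103%) were called, both with a larger change towards Tbx1+/- in the class, and 484 had an unadjusted p under 0.05. A gene could enter this test through the sums of the other nuclei alone. Only 5214 of these genes had enough UMIs in the class for the genotype test above, and 1 of those 5214 was called. That gene was Ndst4, whereas 8030451A03Rik was not among the 5214. Ndst4 was called with a log2 difference of 1.51 ± 0.30 (SE) and an adjusted p of 0.00984. The other nuclei had 83.7 and 102 CPM in WT and 94.5 and 101 in Tbx1+/-.

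The other called gene was the non-coding transcript 8030451A03Rik, with a log2 difference of 3.08 ± 0.65 and an adjusted p of 0.0220. It was at 16.9 and 0 CPM in the class in WT and at 251 and 12.3 in Tbx1+/-, and all 33 UMIs of Tbx1+/- replicate 1 were in 1 nucleus. Other nuclei carried it at 495 to 576 CPM. Neither call held in every fit with 1 library left out. Ndst4 was no longer called without WT replicate 1 (1.46), WT replicate 2 (1.56) or Tbx1+/- replicate 2 (1.07), and 8030451A03Rik was no longer called without Tbx1+/- replicate 1 (0.86) or WT replicate 2 (1.92).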

How the data were processed

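Nuclei of the PF/F were profiled by droplet single-nucleus RNA-seq. The authors aligned reads to mm10 with Cell Ranger 7.0.0 and deposited raw UMI counts per gene and barcode. They also deposited an annotation of the nuclei kept after filters (at least 1000 genes, and a median absolute deviation cut of 3 on UMIs, genes and mitochondrial share), in which the RNA total per nucleus is an estimated count that the authors deposited after their correction for free RNA with SoupX. Clusters had been named by label transfer and curation. Corrected counts per gene were not used here, and doublets were not called here. The petrous bone libraries were not used, and a few genes and types are not reported here.

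Raw counts were summed over the annotated Progenitors of each library and scaled to a common total of 1e+06 (CPM). The members and gene lists were chosen with earlier results of these data known. Genes of 2 genotypes were tested with edgeR 4.0.16 in R 4.3.3 (TMM factors, filterByExpr, quasi-likelihood test, 2-sided, Benjamini-Hochberg adjustment over all genes tested), with calls at an adjusted p under 0.05 and more than 1.5-fold. The difference between the class and all other annotated nuclei was fitted as an interaction on 2 sums per library with the library as a block. Nuclei per type were tested with edgeR on the annotated nuclei of each library at a false discovery rate of 0.1. The SE of a change in edgeR was its size divided by the square root of the F value of its test. DESeq2 1.42.0 was an alternative, as were other factors, filters, nuclei and left-out libraries. The genotype, interaction and share tests were run on simulated data, and the steps that gave levels, ranks and detection shares were not. The simulated numbers of nuclei had the same fixed spread for every type, not that seen in the class. Those runs therefore do not show what change in share could be found in it. Named genes were Tbx1, the PF/F type markers that the study shows, members of the lists, up to 30 leading genes by ratio and the 5 genes with the smallest unadjusted p. Of the named genes, 1 (Corl2) had no row under that symbol. Gene positions are from a GENCODE annotation of GRCm38.

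Each library pooled 5 mice, so p-values rest on the spread between 2 pools a genotype. The tests also draw on the spread of other genes or types to estimate that of each one. The adjusted p of Ndst4 in edgeR's interaction test (0.00984) therefore does not rest on its own spread between pools alone. Libraries held 44713226 to 60627200 UMIs. Wilson intervals (95%) and zero limits (3 counts) cover counting error only. Replicate numbers mark the 2 batches of animals, and the deviations of same-numbered libraries from their genotype means correlated at 0.252 across 4002 genes, so a replicate block was fitted as well.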

Additional observations from a re-analysis of the deposited data

Results flagged for a closer look

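The genotype change of 2 genes in the Meis2-rich class differed from that in all other annotated nuclei by the interaction test in edgeR. For Ndst4 the difference was 1.51 on the log2 scale (adjusted p = 0.00984). Both Tbx1+/- libraries were above both WT libraries in the class, while the other nuclei had 83.7 to 102 CPM. That separation is given no weight, since its share over all tested genes was not counted. The call of Ndst4 was lost without WT replicate 1 (1.46), WT replicate 2 (1.56) or Tbx1+/- replicate 2 (1.07). Its size moved by less than its SE (0.30) in the fits without a WT library, but by more without Tbx1+/- replicate 2. For 8030451A03Rik the difference was 3.08 (adjusted p = 0.0220), and 33 of its 45 UMIs in the class were in 1 nucleus of Tbx1+/- replicate 1. Without that nucleus the library held 0 UMIs of the gene in the class. The gene entered the test through the other nuclei, as its UMIs in the class were too few for the genotype test.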

How the results depend on the processing

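The count of 0 genes called between genotypes became 1 with no filter beyond 1 UMI (8030451A03Rik) and 1 without the 8% of nuclei with the most UMIs (Kcnip4), and ranged from 0 to 2 with 1 library left out (1 without WT replicate 1 or Tbx1+/- replicate 2, both 8030451A03Rik, and 2 without WT replicate 2, Zfhx3 and mt-Nd5). These 4 genes, and those named next, were chosen after their values were seen. A fit with 1 library left out has 1 library in that genotype, so its calls rest on the spread of the other genotype and of other genes. The 2 interaction calls became 4 in nuclei with at least 2000 genes, with Tshz2 and Gm38505 added, and ranged from 1 to 3 with 1 library left out. The genes changed with the library: 1 call without WT replicate 1 (8030451A03Rik), 3 without Tbx1+/- replicate 1 (Ndst4, Foxp2 and, lower, Prkd1), 2 without WT replicate 2 (Zfhx3 and 2700069I18Rik, both lower) and 2 without Tbx1+/- replicate 2 (8030451A03Rik and Adarb2). With the replicate block, 0 genes were called (186 at an unadjusted p under 0.05, against 91) and the change in the share of the class was 0.07, with no call changed. No paired fit was run for the interaction, whose model already has the library as a block.

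The change in share ranged from -0.96 to 0.97 with 1 library left out. Without Tbx1+/- replicate 2 it reversed. It also reversed, to -0.13, when unannotated barcodes with at least 5 Meis2 UMIs were added, an alternative chosen after seeing the data. Leading genes numbered 206 at 50 CPM, 81 at 200 CPM, 73 without the 8% of nuclei with the most UMIs, and 152 to 165 with 1 library left out. Of the mean levels of named genes, 260 settings moved by less than 1 SD and 22 by more, all 22 without the deepest nuclei. Leaving out 1 of 4 libraries cannot move a mean by 1 SD, so those settings could not have moved by more. The setting of at least 2000 genes left out only 1 nucleus of the class in WT replicate 2 and 3 in Tbx1+/- replicate 2. The 260 are therefore no measure of stability. The causes of the 22 moves were not tested. Depth limits the class to 131474 UMIs in its smallest library.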

Other observations

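Outside the annotation, the 177 barcodes with at least 5 Meis2 UMIs also held UMIs of Gm49678, Tafa1, Lhx9 and Slc17a6, and of Neurod1, a factor of granule neurons. Gm49678 was at 550 and 919 CPM of their summed counts in the WT libraries and at 668 and 897 in the Tbx1+/- libraries. Tafa1 was at 904 and 1216 CPM in WT and at 1638 and 1863 in Tbx1+/-. Lhx9, near 0 in other annotated types, was at 30.8 and 46.6 CPM in WT and at 32.5 and 32.5 in Tbx1+/-. Slc17a6 was at 231 and 166 CPM in WT and at 247 and 173 in Tbx1+/-. Neurod1 was at 49.7 and 27.4 CPM in WT and at 47.7 and 16.2 in Tbx1+/-, beside a mean of 21.1 in the class. The median depth of these barcodes was 15769 and 19952.5 UMIs in WT and 11919 and 19262 in Tbx1+/-. They were chosen by Meis2, whose level is therefore not given as a result, and how many hold more than 1 nucleus was not tested.

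At least 5 Meis2 UMIs were also found in 169 annotated nuclei of other types, of which 58 were Diff.GABA.interneuron (1.61% of that type), 47 Astroglia (0.657%), 34 Oligodendrocyte (2.09%) and 11 RL.early (1.88%).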
